A study of Mus musculus with 18 samples.

Results

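Mouse CD8+ T cells, taken from spleen and lymph node, that carried a CRISPR/Cas9 edit of Atf4 (labelled ATF4 KO) were compared with cells edited at Rosa26 after culture with halofuginone. The comparison uses 6 of the 18 libraries of the series, 3 from Atf4 knockout cells and 3 from Rosa26 cells, and covers all 14695 genes of the deposited count table. A difference is the knockout over Rosa26 throughout, on the log2 scale. Rosa26 is a neutral locus, so these controls also went through editing and carry no intended loss of a gene. All 6 libraries share the primary cell type, the poly-A RNA library method and 24 hours of culture with the drug. The other libraries used beside them are 3 of each genotype cultured untreated, and 3 of Cebpg knockout cells (labelled CEBPG KO) with halofuginone. The concentration of the drug, the age of the mice, the guides, the share of edited cells, and the number of mice or cultures behind each group were not found in the labels. The p-values therefore measure only the spread between libraries within groups, which may be technical. That spread was estimated over all 18 libraries and not from the 6 compared alone.

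Halofuginone blocks prolyl-tRNA synthetase, so that tRNA for proline stays uncharged. Uncharged tRNA activates the kinase GCN2, which phosphorylates the initiation factor eIF2alpha, slows translation in general and favours translation of the ATF4 mRNA. ATF4 is a transcription factor of the bZIP family that pairs with C/EBP proteins, C/EBP gamma among them, and binds elements near genes for amino acid synthesis, amino acid uptake, tRNA charging and stress signalling. Dividing CD8 T cells need large supplies of amino acids and nucleotides.

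The 6 libraries held between 14.7 and 20.3 M counts (M for mega), and the 18 held between 14.2 and 20.3 M. Rosa26 library 2 and Atf4 knockout library 3 stood apart from the other libraries of their groups. The nuclear RNA Malat1 was at 611.3 CPM (counts per M counts of the library) and 1078 CPM in those 2, against 2112 to 3713 CPM in the other 4. Counts of provisional transcript models (annotated as TEC) made up 0.0542% and 0.0735% there, against 0.189% to 0.302%. Along the first principal component of the spread within groups, which held 74.2% of it, both lay at the same end (-59.5 and -55.5, others 18.4 to 37.1). Their part in the results was not tested, and the counts of the drug comparison and of its difference from the untreated one were repeated without both. All 11 markers of CD8 T cells were among the genes tested, with summed levels of 4310 to 4950 CPM in Rosa26 and 3940 to 4710 CPM in the knockout, and 3 fell, 1 rose and 7 did not pass. Cd8a was at 1070, 1170 and 1100 CPM in Rosa26 and 950, 930 and 997 CPM in the knockout (-0.21, adjusted p = 0.00956), Thy1 (-0.38) and Cd2 (-0.42) also fell, and Cd247 rose (0.37). All 4 lost their calls in the fit of these 6 libraries alone, Cd247 also without Rosa26 library 1 or 3. B cell markers summed to 437 to 500 CPM and 408 to 494 CPM over 7 of 12 members tested, nearly all of it from Ighm (395 to 481 CPM), while Cd79a stayed at or below 0.562 CPM. Over 3 of 14 myeloid markers the sums were 7.76 to 9.83 CPM in Rosa26 and 6.56 to 10 CPM in the knockout. For erythroid cells and platelets 3 of 9 markers were tested, with sums of 4.04 to 7.97 CPM and 8.77 to 12.3 CPM, and Ppbp was at 0 in all 6. For NK cells 4 of 8 markers, which CD8 T cells also express, summed to 414 to 486 CPM and 442 to 581 CPM. For CD4 T cells 5 of 8 summed to 812 to 858 CPM in Rosa26 and 634 to 672 CPM in the knockout, with 2 lower, 1 higher and a median of 0.20. Il2ra, the largest of them, fell by 0.50 and Ikzf2 rose by 0.86. Il2ra is also counted among the cytokine receptors below, so this sum is no measure of CD4 T cells. Zbtb7b, the gene of ThPOK, a factor of the CD4 lineage, went from 25.4 to 29 CPM in Rosa26 to 8.66 to 9.67 CPM in the knockout (log2 -1.55, adjusted p = 9.68e-09). In bulk RNA, fewer cells of a type and less RNA per cell cannot be told apart.

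With halofuginone, Atf4 knockout cells had lower mRNA for most genes tested of stress regulation, serine synthesis, tRNA charging, glycolysis and cell division, and higher mRNA for several naive T cell genes, receptors and sterol exporters. By edgeR's quasi-likelihood test 2397 genes (16.3% of those tested) were lower in the knockout and 1731 (11.8%) were higher, at an adjusted p under 0.05. The fold reached 2 in 200 of the lower genes and in 103 of the higher ones. The median over all genes was 0.0011, so the counts and medians of gene groups given below stand beside 16.3% lower, 11.8% higher and a median near 0. Shares were larger among well-detected genes, where a fit of the 9748 with a mean of at least 5 CPM called 2334 lower and 2110 higher. Levels of the 2 groups did not overlap for 4987 genes, which is 33.9% of all. Genes named below for small p-values or extreme fold changes were picked on these same levels. Their lack of overlap is a description only. Protein-coding genes made up most calls, with 20.3% of 11390 lower and 14.2% higher, against 1.09% and 0.844% of the 829 TEC models. Without both libraries of low Malat1 4618 genes were called. Fitting only these 6 libraries, with their own spread, left 2500 calls in place of 4128, 1138 higher and 1362 lower. Upper-quartile scaling turned the balance of calls to 2372 higher and 2171 lower.

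**Figure D1:**
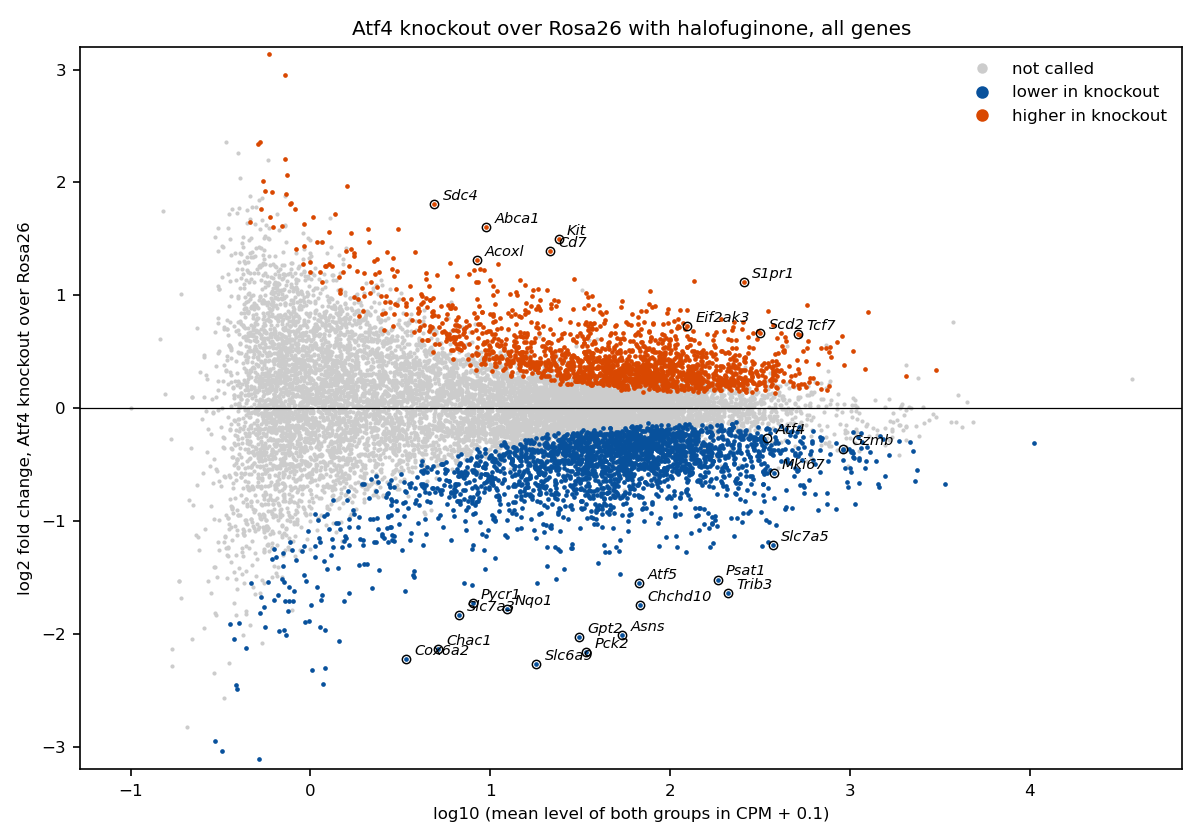
Log2 fold change of Atf4 knockout over Rosa26 with halofuginone (vertical) against the mean level of both groups (horizontal, log10 of CPM + 0.1) for all genes, with called genes in colour and some named genes circled. Slc6a9, Pck2, Gpt2 and Asns lie at or below -2, S1pr1 and Kit lie above 1, and 2 genes outside the vertical axis, Cacna1i and 4930556H04Rik, are not drawn.

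The targeted mRNA itself did not mark the knockout. Atf4 was at 357, 428 and 351 CPM in Rosa26 and at 300, 267 and 378 CPM in the knockout. The groups overlapped, because knockout library 3 lay above Rosa26 libraries 1 and 3, and the difference of -0.26 ± 0.101 (SE) did not pass the test (adjusted p = 0.0587). It passed without knockout library 3 (-0.38), without Rosa26 library 3 (-0.32), without both libraries with low Malat1 (-0.31) and under 5 other settings (-0.21 to -0.27). A gene-level count cannot show an edit that leaves the mRNA in place, so this level does not check the label. Cebpg, the gene of the partner C/EBP gamma, was at 169, 183 and 167 CPM in Rosa26 and at 132, 123 and 137 CPM in the knockout. All 3 knockout libraries lay lower, and the difference was -0.41 ± 0.0594 (adjusted p = 2.84e-05).

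A gene near Atf4 was detected almost only in Atf4 knockout cells. Cacna1i, which encodes a T-type calcium channel, had 0 counts in each of the 3 Rosa26 libraries and 217, 335 and 213 counts (13.3, 20.9 and 12.7 CPM) in the knockout libraries. Against a floor of 3 counts per library the mean knockout level was at least 83.8-fold higher (adjusted p = 8.04e-07 for the fitted difference, whose size depends on the prior count). It had 141, 146 and 136 counts in untreated knockout libraries, 4, 7 and 0 counts in untreated Rosa26 libraries, and 0 in each Cebpg knockout library with the drug. In the GENCODE M21 order of genes on chromosome 15, Rps19bp1 lies between Atf4 and Cacna1i. Rps19bp1 was at 19.3, 24.3 and 21 CPM in Rosa26 and 16.5, 16 and 21.4 CPM in the knockout, which overlapped (-0.26, adjusted p = 0.0981). Untreated, it was lower in the knockout, at 24.3, 24.4 and 25.4 CPM in Rosa26 and 16.9, 18.9 and 17.3 CPM (-0.48, adjusted p = 0.00368). Grap2, which lies beyond Cacna1i and encodes an adaptor of T cell receptor signalling, rose by 0.20 (adjusted p = 0.00681). Of other genes looked at near Atf4, Tab1 rose by 0.34 (adjusted p = 0.00208), and Mgat3 (1.17) and Mief1 (-0.06) did not pass.

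After a minimum of 5 CPM in a group and no overlap of levels, the 12 genes with the lowest fold changes were Slc6a9 (-2.27), Cox6a2 (-2.22), Pck2 (-2.16), Chac1 (-2.13), Gpt2 (-2.03), Asns (-2.01), Slc7a3 (-1.84), Nqo1 (-1.78), Chchd10 (-1.75), Pycr1 (-1.73), Trib3 (-1.64) and Dnph1 (-1.56). Pck2, the mitochondrial phosphoenolpyruvate carboxykinase, was at 50, 59.9 and 57.3 CPM in Rosa26 and 11.5, 11.9 and 13.9 CPM in the knockout. No knockout library came near the Rosa26 range (SE 0.101, adjusted p = 2.16e-11). Cox6a2, an isoform of a cytochrome c oxidase subunit known from muscle, was at 5.04, 6.95 and 4.36 CPM and fell to 0.921, 1.31 and 1.25 CPM (SE 0.403, adjusted p = 0.000284). Chchd10, a small protein of the mitochondrial intermembrane space, was at 98.5, 124 and 89.6 CPM and at 30.6, 27.8 and 34.5 CPM in the knockout (SE 0.108, adjusted p = 8.84e-10). Dnph1, a nucleotide hydrolase, went from 11.2, 14.8 and 9.28 CPM to 4.12, 3 and 4.77 CPM (adjusted p = 1.01e-06). In all of these the 3 knockout libraries lay below all 3 Rosa26 libraries, as the naming rule required.

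Of these 12 genes, 5 have promoters with the letters of the C/EBP-ATF element, the site at which ATF4 with a C/EBP partner is known to bind. RefSeq windows of 250 bases before the start (mouse build GRCm38.p6) were matched by symbol for 9636 of the 14695 genes, but not for Cox6a2 and Slc7a3. TGATGNAA, searched on either strand, was present in 2.32% of all genes matched, in 10% (14 of 140) of the genes lower by at least 2-fold and in 1.82% (1 of 55) of those higher by at least 2-fold. Among all called genes it was in 3.06% of the lower and 1.81% of the higher. The cAMP response core TGACG, which does not overlap with those letters, was in 31.5%, 34.3% and 27.3% of all, 2-fold lower and 2-fold higher genes. A match is a description of letters in this window and no evidence of binding. The stretches below, 20 bases on each side of a match where the window allows, show the element in those 5 genes, with the matched letters in capitals and each stretch written 5′ to 3′ on the strand of its gene.
Asns: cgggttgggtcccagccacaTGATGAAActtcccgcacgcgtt
Chac1: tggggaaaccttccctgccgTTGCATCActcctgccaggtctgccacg
Pck2: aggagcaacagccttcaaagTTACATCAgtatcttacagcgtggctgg
Chchd10: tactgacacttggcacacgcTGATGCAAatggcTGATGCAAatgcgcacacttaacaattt
Pycr1: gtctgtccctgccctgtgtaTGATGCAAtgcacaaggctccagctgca
The Asns stretch lies at chr6:7693210-7693252 (minus strand) with the match 23 to 16 bases before the start. That of Chac1 is chr2:119351029-119351076 (plus strand, 193 to 186 bases before the start), and that of Pck2 is chr14:55540143-55540190 (plus strand, 103 to 96 bases). Chchd10 holds 2 matches within chr10:75933025-75933085 (plus strand, 85 to 65 bases), and Pycr1 holds 1 at chr11:120643824-120643871 (minus strand, 103 to 96 bases). In Chac1 and Pck2 the capitals read as the reverse complement of the element. The other genes lower by at least 2-fold with a match were Nupr1, Hesx1, Gm41333, Vldlr, Plekhh3, Phf11a, Atf3, Idi1 and Fen1, and the higher gene with a match was Slc23a3.

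Most regulators of the stress response were lower in knockout cells given the drug. Of 22 regulators tested, 14 fell, 3 rose and 5 did not pass, with a median of -0.69. Trib3, a pseudokinase that feeds back on ATF4, was at 309, 356 and 294 CPM in Rosa26 and 102, 84.7 and 120 CPM in the knockout. The groups lay far apart (-1.64 ± 0.108, adjusted p = 3.79e-09). Atf5, a bZIP factor of the mitochondrial stress response, was at 99.2, 115 and 86.3 CPM and at 31, 31 and 40.6 CPM (-1.55 ± 0.13, adjusted p = 4.9e-08). Chac1, which degrades glutathione, was at 7.26, 8.63 and 8.65 CPM and at 1.84, 2.06 and 1.67 CPM (-2.13 ± 0.278, adjusted p = 7.96e-06). Vegfa, the endothelial growth factor, fell by 1.37 and Sesn2, the leucine sensor upstream of mTORC1, fell by 1.06, from 52.8, 65.3 and 51.8 CPM to 26.3, 25.3 and 30 CPM. Nupr1 (-2.45), Cebpb (-1.17), Ppp1r15a (-0.68), which recruits the eIF2alpha phosphatase, and Stc2 (-0.90) also fell. Ddit3, which encodes the death-linked factor CHOP, overlapped between groups at 41.4, 53.8 and 39 CPM in Rosa26 and 36.5, 30.4 and 40 CPM in the knockout (-0.32 ± 0.185, adjusted p = 0.218). The members that rose were Gadd45b (0.83), Klhl24 (0.84) and Txnip (0.85).

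**Figure D2:**
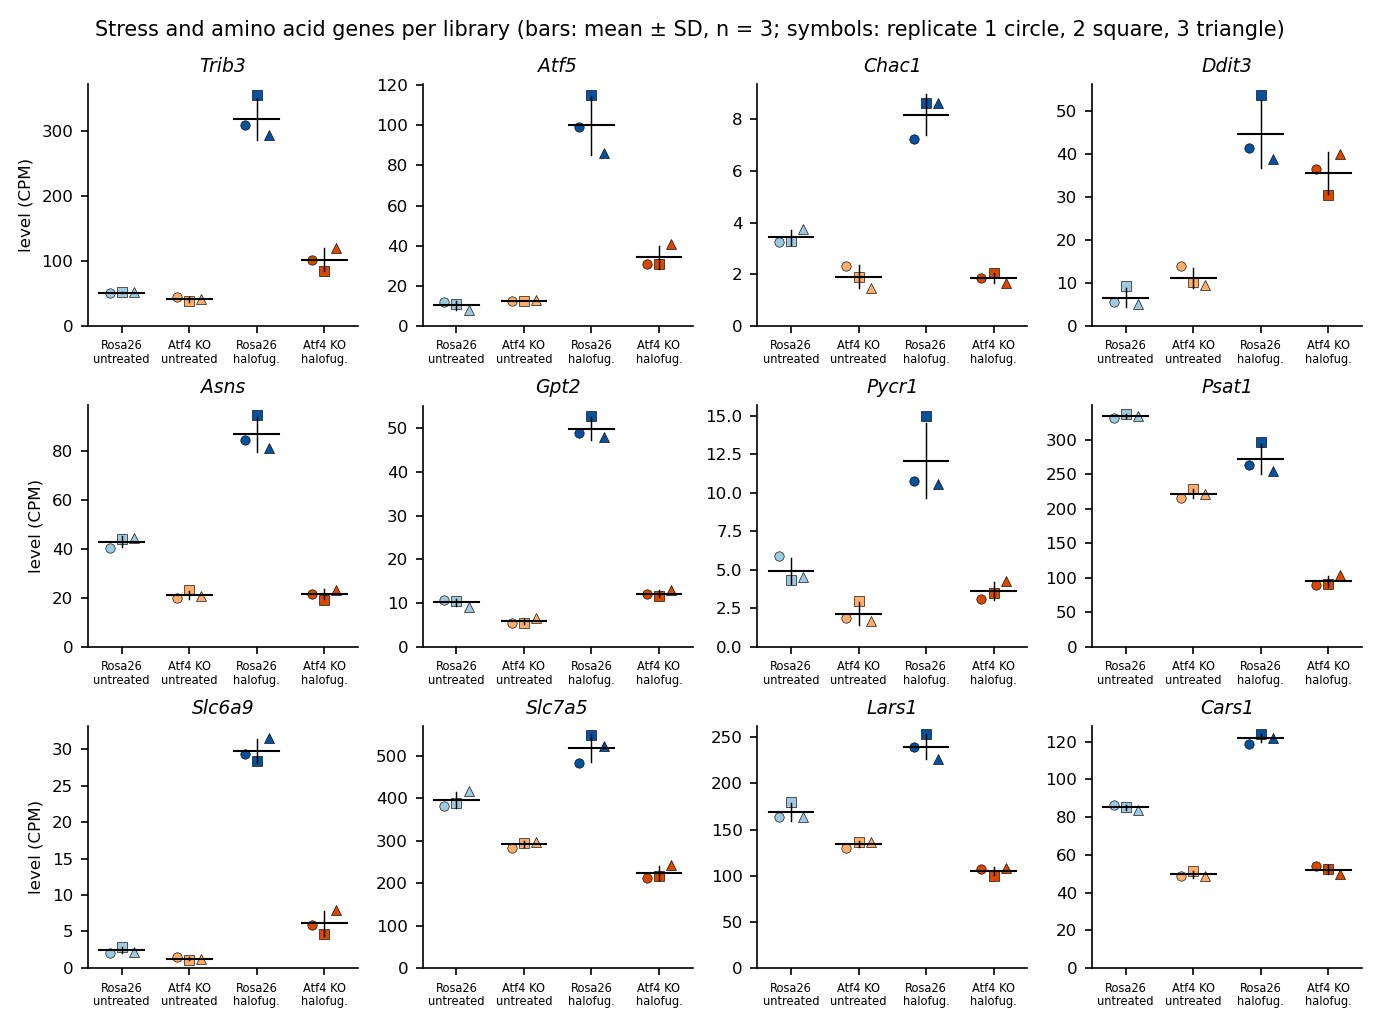
Levels in CPM (vertical, from 0) of 12 stress and amino acid genes in each library of 4 groups, Rosa26 and Atf4 knockout, untreated and with halofuginone (halofug.), with mean and SD bars. Rosa26 libraries with the drug lie above the knockout libraries with the drug in each panel except Ddit3, where they overlap.

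Genes that act upstream of ATF4 or beside it in translation control changed in both directions. Of 25 genes for eIF2alpha kinases, eIF2B and mTORC1 control, 10 fell, 5 rose and 10 did not pass, with a median of -0.11. Eif4ebp1, the translation inhibitor 4E-BP1, was at 60.7, 68.3 and 54.2 CPM in Rosa26 and 22.8, 23.3 and 29.3 CPM in the knockout (-1.28 ± 0.0954, adjusted p = 8.2e-09). Eif2ak3, the ER stress kinase PERK, moved the other way, from 85, 97.6 and 96.6 CPM to 152, 154 and 157 CPM (0.73 ± 0.058, adjusted p = 1.87e-08). Sesn3, another sestrin, was at 235, 238 and 231 CPM and at 378, 398 and 356 CPM (0.69). All knockout libraries lay above Rosa26 for both. Eif2ak4, which encodes GCN2, had a difference of 0.11 that did not pass. The count of lower members was 6 without knockout library 1 and 5 without knockout library 2, and that of higher members was 3 without knockout library 1. The median was -0.19 without knockout library 3.

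Of 18 amino acid transporters tested, 9 fell, 2 rose and 7 did not pass, with a median of -0.24. Slc6a9, the glycine transporter GlyT1, was at 29.3, 28.4 and 31.6 CPM in Rosa26 and 5.83, 4.62 and 7.99 CPM in the knockout (-2.27 ± 0.154, adjusted p = 2.43e-09). Slc7a3, a carrier of cationic amino acids, was at 10.2, 10.9 and 9.71 CPM and at 3.87, 1.81 and 2.92 CPM (-1.84 ± 0.227, adjusted p = 4.37e-06). Slc1a4, which carries alanine, serine and cysteine, was at 35.2, 39.9 and 36.6 CPM and at 12.8, 13.4 and 15.3 CPM (-1.43 ± 0.116). The levels of none of these 3 overlapped between groups. Slc7a5, the leucine carrier LAT1, was the most abundant of those named, at 483, 549 and 524 CPM against 211, 217 and 242 CPM (-1.22 ± 0.0725, adjusted p = 5.26e-10). Its partner Slc3a2 fell by 0.77. Slc38a9, the lysosomal arginine sensor, rose by 0.62 and Slc43a2, a carrier of large neutral amino acids, rose by 0.48.

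The enzymes that charge tRNA in the cytosol fell almost throughout. Of 20 tested, 18 fell and 2, Qars1 (-0.15) among them, did not pass, and the median was -0.88. Cars1, for cysteine, was at 119, 124 and 122 CPM in Rosa26 and 54.3, 52.7 and 49.6 CPM in the knockout (-1.22 ± 0.0551, adjusted p = 1.32e-11). Lars1, for leucine, was at 239, 254 and 227 CPM and at 107, 99.4 and 108 CPM (-1.20 ± 0.057). Yars1, for tyrosine, fell by 1.08 and Aars1, for alanine, fell by 1.00, from 455, 480 and 426 CPM to 219, 215 and 249 CPM. For each of these the knockout libraries lay below every Rosa26 library. Eprs1, which encodes the synthetase for glutamate and proline that halofuginone inhibits, fell by 0.87. The mitochondrial synthetases differed less: of 17 tested, 4 fell, 2 rose and 11 did not pass, with a median of -0.04 that turned to 0.03 under upper-quartile scaling and was -0.06 without knockout library 2, -0.09 without Rosa26 library 2 and -0.07 without both libraries with low Malat1. Pars2, for proline, was at 11.6, 14.2 and 12 CPM and at 8.29, 8.55 and 9.19 CPM (-0.54 ± 0.138, adjusted p = 0.00582), and Vars2, for valine, fell by 0.34. Fars2, for phenylalanine, was called higher (0.31, adjusted p = 0.0178) and lost its call without knockout library 2, Rosa26 library 2 or 3, or both libraries with low Malat1 (0.25 to 0.29), in the fit of these 6 libraries alone, and by voom. The count of lower mitochondrial members was 2 without knockout library 1 or 2 or Rosa26 library 2. That of higher members was 1 without knockout library 1, Rosa26 library 1 or both libraries with low Malat1, and 0 without knockout library 2 or Rosa26 library 2 or 3.

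Serine synthesis and the folate cycle were lower in the knockout. Of 19 genes tested, 14 fell, 1 rose and 4 did not pass, with a median of -0.79. Phgdh catalyses the first step of serine synthesis and was at 495, 589 and 483 CPM in Rosa26 and 237, 218 and 308 CPM in the knockout (-1.04 ± 0.104, adjusted p = 4.11e-07). Psat1, the next enzyme, was at 264, 297 and 255 CPM and at 89.3, 91.6 and 104 CPM (-1.52 ± 0.0681, adjusted p = 1.32e-11). Shmt2, which makes glycine in mitochondria, was at 442, 505 and 408 CPM and at 184, 168 and 227 CPM (-1.23 ± 0.089). The mitochondrial folate enzymes Mthfd2 (-1.28 ± 0.0573) and Mthfd1l (-1.02 ± 0.0619) had levels that did not overlap either. Aldh1l2, which oxidises formyl folate, was near the detection limit at 1.45, 2.67 and 1.43 CPM and 0.798, 0.0624 and 0.239 CPM (-2.31 ± 0.576, adjusted p = 0.00455) and lost its call in the fit of these 6 libraries alone. The member that rose, Mthfd2l, lost its call without knockout library 1 or 3, without any 1 Rosa26 library, and without both libraries with low Malat1.

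Genes for asparagine, proline, alanine and glutamate followed. Of 16 tested, 9 fell and 7 did not pass, with a median of -0.49. Asns, asparagine synthetase, was at 84.5, 94.8 and 81.3 CPM in Rosa26 and 21.8, 19.3 and 23.4 CPM in the knockout (-2.01 ± 0.0871, adjusted p = 1.32e-11). Gpt2, the mitochondrial alanine transaminase, was at 49, 52.8 and 47.9 CPM and at 12, 11.6 and 13.1 CPM (-2.03 ± 0.119). Pycr1, which completes proline synthesis in mitochondria, was at 10.8, 15 and 10.6 CPM and at 3.13, 3.5 and 4.3 CPM (-1.73 ± 0.209, adjusted p = 3.24e-06). In each of these genes every knockout library lay below every Rosa26 library, as the rule for the 12 lowest required. Aldh18a1, which starts proline synthesis, fell by 0.97, and Bcat1, a branched-chain transaminase, fell by 1.28. Glul, glutamine synthetase, had a difference of 0.18 that did not pass.

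Genes of redox balance and of chaperones passed in different shares. Of 18 genes for glutathione, transsulfuration and thioredoxin, 13 fell and 5 did not pass, with a median of -0.56. Nqo1, a quinone reductase, was at 17.2, 22.4 and 17.3 CPM in Rosa26 and 4.42, 4.81 and 7.28 CPM in the knockout (-1.78 ± 0.159, adjusted p = 7.92e-08). Srxn1 (-1.50) and Hmox1 (-1.45), which like Nqo1 are known NRF2 targets, fell too. Txnrd1, thioredoxin reductase, was at 331, 348 and 318 CPM and at 164, 174 and 184 CPM (-0.93 ± 0.0551), and Gsr, glutathione reductase, fell by 0.79. Of 13 mitochondrial chaperones and proteases 6 fell and 7 did not pass (median -0.38). Those that fell included the protease Lonp1, at 236, 249 and 224 CPM against 117, 113 and 126 CPM (-0.99 ± 0.0566), and by Hspa9 (-0.85) and Hspd1 (-0.68). Of 26 ER chaperones and sensors 15 fell and 11 did not pass, with a median of -0.27. Xbp1, the transcription factor of the unfolded protein response, was at 192, 228 and 215 CPM and at 95.6, 103 and 134 CPM (-0.93 ± 0.0923). Sdf2l1 (-1.06) and Calr (-0.66) fell, while Hspa5, the main ER chaperone BiP, had a difference of -0.16 that did not pass.

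Lipid genes split by function. Of 24 cholesterol synthesis genes 19 fell and 5 did not pass, with a median of -0.52. Sqle, squalene epoxidase, was at 44.8, 57.1 and 46.7 CPM in Rosa26 and 21.9, 24.5 and 28.9 CPM in the knockout (-0.98 ± 0.0977, adjusted p = 3.4e-07). All 3 knockout libraries lay below the Rosa26 libraries. Of 13 fatty acid genes 7 fell, 3 rose and 3 did not pass (median -0.20, and -0.13 without both libraries with low Malat1). Fasn, fatty acid synthase, fell by 0.56 and Fads2, a desaturase, fell by 1.48. Scd2, which makes monounsaturated fatty acids, rose from 225, 266 and 243 CPM to 374, 365 and 425 CPM (0.67 ± 0.071, adjusted p = 7.16e-07). Of 9 LXR targets and sterol export genes 6 rose and 3 did not pass, with a median of 0.40. Abca1, which moves cholesterol out of the cell, was at 3.58, 4.72 and 5.73 CPM and at 12.4, 13.7 and 16.4 CPM (1.61 ± 0.241, adjusted p = 4.09e-05). Abcg1, with a similar role, was at 52, 51.4 and 48.2 CPM and at 102, 101 and 108 CPM (1.04 ± 0.0853), and Mylip, a ubiquitin ligase gene induced by LXR, rose by 0.89. Every knockout library was higher than every Rosa26 library in Scd2, Abca1, Abcg1 and Mylip. For Abca1, among the 12 highest fold changes, the naming rule required this.

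Of 26 genes of glycolysis and the hypoxia response, 20 fell, 1 rose and 5 did not pass, with a median of -0.67. Pgk1 was at 440, 536 and 450 CPM in Rosa26 and 230, 221 and 260 CPM in the knockout (-1.01 ± 0.0794), Aldoa fell by 0.90 and Hk2, hexokinase 2, fell by 0.70. The lactate exporter Slc16a3 fell by 1.15, and the glucose carrier Slc2a3 rose by 0.48. Of 37 nuclear genes of oxidative phosphorylation 20 fell and 17 did not pass (median -0.38), with Cox5a at -0.69 and Ndufv1 at -0.56. That count was 37 without knockout library 3, 36 without both libraries with low Malat1, 10 without knockout library 1 or 2, and 9 in the fit of these 6 libraries alone. Of 10 mRNAs encoded in mitochondria 4 fell (median -0.47), and 8 did so without knockout library 3 or without both. The median was -0.76 in either case and -0.22 without knockout library 1. mt-Nd2 was at 535, 638 and 603 CPM and at 338, 336 and 497 CPM (-0.60), whereas mt-Nd1 overlapped between groups because knockout library 3 reached 1120 CPM (-0.56, adjusted p = 0.00628). mt-Nd1 and mt-Nd5 (-0.39) lost their calls in the fit of these 6 libraries alone.

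The count of ribosomal protein genes called moved most with knockout library 3. Of 83 cytosolic ribosomal protein genes 13 fell and 70 did not pass, with a median of -0.20. That share of lower genes was near the 16.3% of all genes. The count was 66 without knockout library 3, 43 without both libraries with low Malat1, 4 without knockout library 1 or 2, 5 without Rosa26 library 2, and 1 in the fit of these 6 libraries alone. The median was -0.44 without knockout library 3, -0.07 without knockout library 2 and -0.09 without Rosa26 library 2. Rpl14, of the large subunit, was at 1290, 1720 and 1260 CPM in Rosa26 and 1010, 893 and 1060 CPM in the knockout (-0.53 ± 0.11, adjusted p = 0.00095). The Rosa26 library with low Malat1 was the highest of its group there. Rps2 (-0.55) and Rpl10 (-0.46) lost their calls in the fit of these 6 libraries alone, and reads of such genes may be shared with their pseudogenes. Of 77 mitochondrial ribosomal protein genes 28 fell, 1 rose and 48 did not pass (median -0.30), and 59 fell without knockout library 3, 53 without both libraries with low Malat1, and 11 in the fit of these 6 libraries alone. The 1 that rose did not pass without Rosa26 library 3, and the median was -0.19 without knockout library 2. Mrps25 (-0.76), Mrpl28 (-0.61) and Mrpl3 (-0.37) had the smallest p-values among them.

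Every gene tested of DNA replication and of mitosis was lower in the knockout. All 32 replication genes fell (median -0.72) and all 32 mitosis and spindle genes fell (median -0.77). Cdc6, which loads the replicative helicase, was at 51.9, 50.8 and 54.4 CPM in Rosa26 and 27.1, 26.7 and 23.3 CPM in the knockout (-1.03 ± 0.0713, adjusted p = 3.1e-09). Mcm10 (-0.93) and the ligase Lig1 (-0.89) lay apart between groups in the same way. Tpx2, a spindle assembly factor, was at 107, 125 and 112 CPM and at 53.4, 56.3 and 59.8 CPM (-1.02 ± 0.0626, adjusted p = 7.31e-10). Birc5, survivin, and Bub1b, of the spindle checkpoint, fell by 1.00 and 0.94. Mki67, the proliferation marker Ki-67, was at 428, 443 and 480 CPM and at 294, 316 and 294 CPM (-0.58 ± 0.0708). Of 22 nucleotide synthesis genes 19 fell, 1 rose and 2 did not pass (median -0.54). Tk1, thymidine kinase, was at 65.8, 76.1 and 67.8 CPM and at 26.7, 27.7 and 34.8 CPM (-1.23 ± 0.0851), and the ribonucleotide reductase subunits Rrm1 (-1.04) and Rrm2 (-0.96) fell with it.

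Targets of p53 and members of the BCL2 family were more often higher. Of 23 tested, 11 rose, 2 fell and 10 did not pass, with a median of 0.27. Trp53inp1, which promotes autophagy and cell death, was at 168, 171 and 166 CPM in Rosa26 and 286, 281 and 290 CPM in the knockout (0.77 ± 0.0499, adjusted p = 1.53e-09). The pro-apoptotic BH3-only genes Bcl2l11, at 158, 161 and 154 CPM against 223, 224 and 224 CPM (0.50 ± 0.0564), and Pmaip1 (0.76) rose, as did the survival gene Mcl1 (0.50) and the death receptor gene Fas (0.57). The groups did not overlap for Trp53inp1, Bcl2l11 or Pmaip1. The 2 that fell were 0 without knockout library 1 or 2 and 1 without Rosa26 library 1 or 2.

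**Figure D3:**
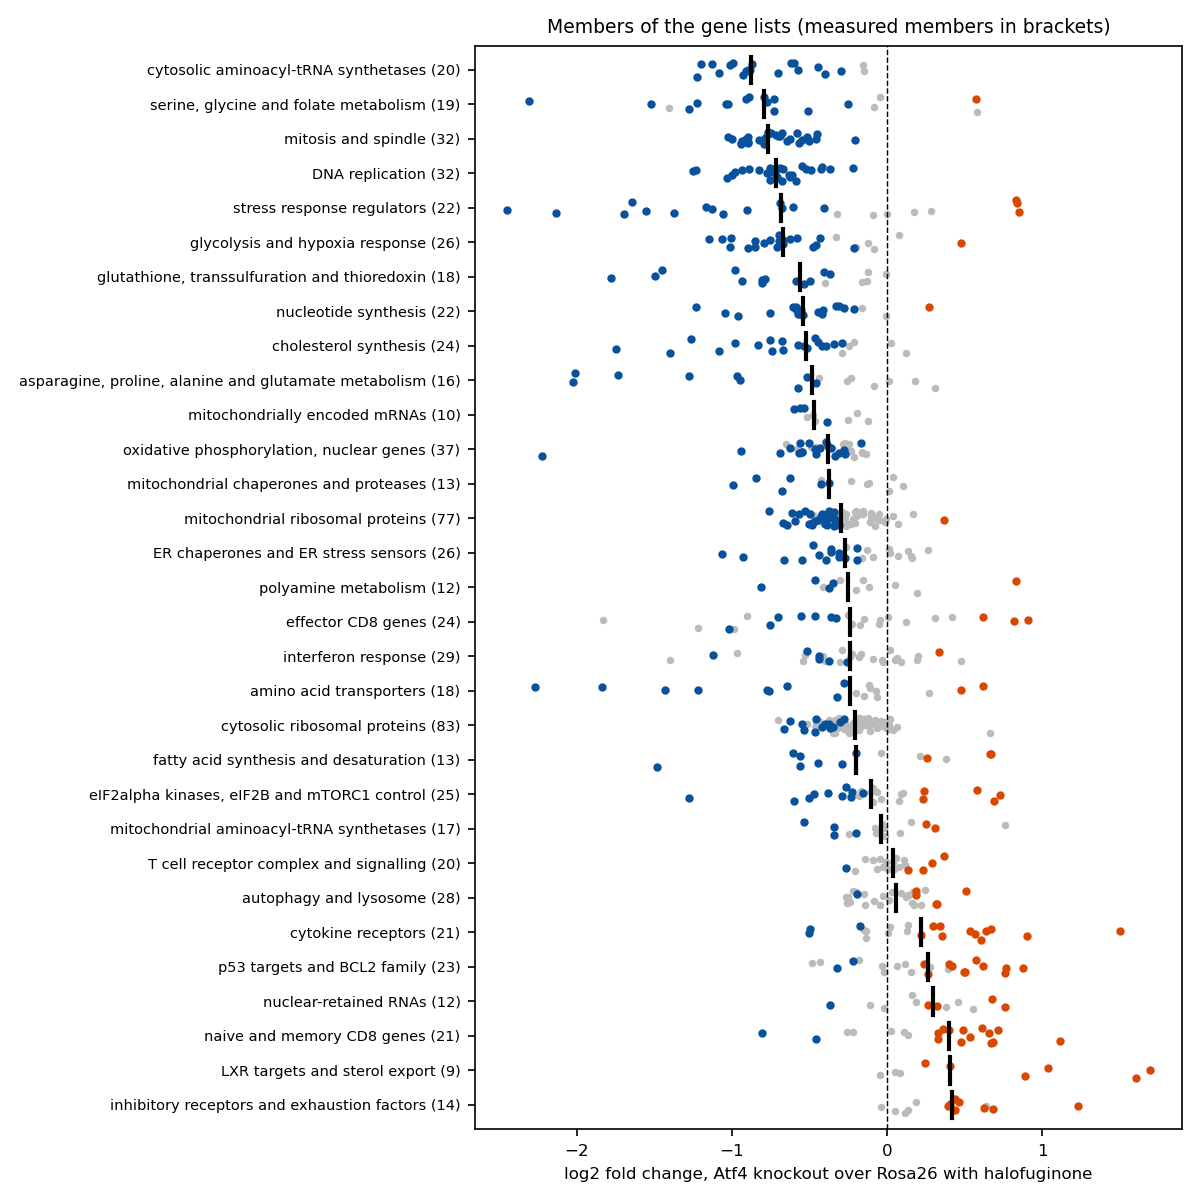
Log2 fold change of each tested member (points) of the 31 lists of biology, Atf4 knockout over Rosa26 with halofuginone, with called members blue (lower) or orange (higher), others grey, the list's median as a bar and the median of all genes as a dashed line. Medians run from -0.88 for cytosolic aminoacyl-tRNA synthetases to 0.42 for inhibitory receptors.

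Among T cell genes, those of naive and memory cells were higher in the knockout. Of 21 tested, 13 rose, 2 fell and 6 did not pass, with a median of 0.40. S1pr1, the receptor that lets T cells leave lymphoid organs, was at 135, 196 and 158 CPM in Rosa26 and 336, 319 and 401 CPM in the knockout (1.12 ± 0.107, adjusted p = 3.84e-07). Il7r, the receptor for the survival cytokine IL-7, was at 35.6, 37.2 and 35.5 CPM and at 54.8, 60.9 and 56.4 CPM (0.67 ± 0.0747). Tcf7, which encodes the memory and stem-like factor TCF1, was at 371, 452 and 370 CPM and at 645, 550 and 684 CPM (0.66 ± 0.0825), and Bach2, a repressor of effector genes, rose from 144, 142 and 148 CPM to 220, 229 and 180 CPM (0.54 ± 0.0779). None of these 4 overlapped between groups. Klf3 (0.68), Klf2 (0.71), Lef1 (0.49) and Ccr7 (0.48) rose too. Eomes fell by 0.80, and Id3 (-0.45) lost its call in the fit of these 6 libraries alone and without knockout library 1 or 2. Of 24 effector genes 7 fell, 3 rose and 14 did not pass, with a median of -0.24. Tnf was at 49.2, 58.2 and 48.8 CPM and at 30.5, 28.3 and 36.9 CPM (-0.71 ± 0.087), Tbx21, the effector factor T-bet, fell by 0.46, and Irf8 fell by 0.75. Gzmb, granzyme B, was at 1000, 1110 and 979 CPM and at 730, 756 and 920 CPM (-0.36 ± 0.0801, adjusted p = 0.0018) and lost its call in the fit of these 6 libraries alone. Ifng, interferon gamma, was near the detection limit at 0.869 to 1.07 CPM and 0.43 to 0.624 CPM (-0.90 ± 0.652, adjusted p = 0.341). Among the effector genes that rose was Fasl (0.82), and the count of such genes was 1 without Rosa26 library 3.

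**Figure D4:**
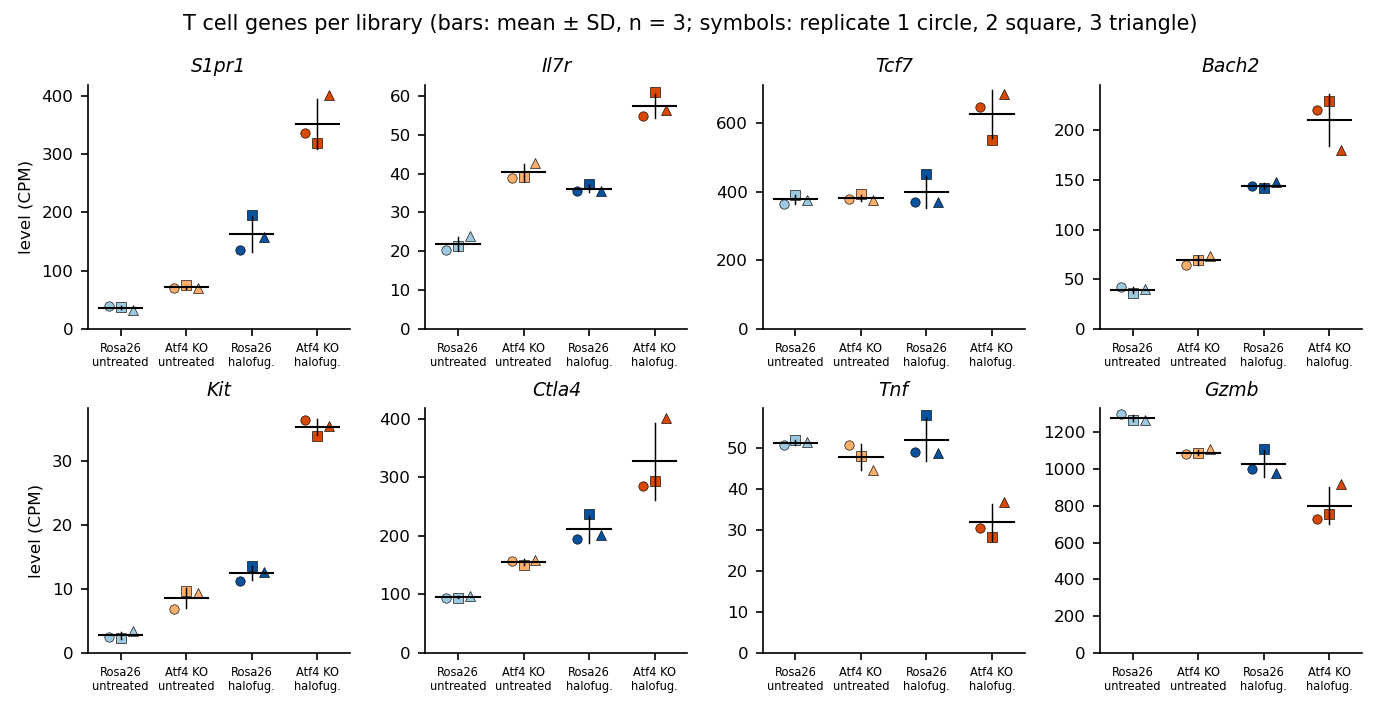
Levels in CPM (vertical, from 0) of 8 T cell genes in each library of the 4 groups of Rosa26 and Atf4 knockout cells, untreated and with halofuginone (halofug.), with mean and SD bars. With the drug, S1pr1, Il7r, Tcf7, Bach2, Kit and Ctla4 are higher in all 3 knockout libraries than in all 3 Rosa26 libraries, and Tnf and Gzmb are lower.

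Of 14 inhibitory receptors and exhaustion factors 8 rose and 6 did not pass, with a median of 0.42. Ctla4 was at 195, 238 and 202 CPM in Rosa26 and 285, 294 and 402 CPM in the knockout (0.63 ± 0.106, adjusted p = 0.000174). Btla (0.44), Lag3 (0.46) and Nt5e, the ectonucleotidase CD73 (0.39), rose, and Nr4a1, an early gene of antigen receptor signalling, went from 4.5, 6.71 and 4.36 CPM to 13.3, 10.5 and 12.5 CPM (1.23 ± 0.242). Of 21 cytokine receptors 11 rose, 3 fell and 7 did not pass (median 0.22). Kit, the stem cell factor receptor, was at 11.2, 13.5 and 12.7 CPM and at 36.4, 33.9 and 35.4 CPM (1.50 ± 0.115, adjusted p = 1.11e-08). Ifngr1, of the interferon gamma receptor, was at 645, 767 and 702 CPM and at 1030, 1060 and 1190 CPM (0.64 ± 0.0718), and Il6ra (0.90) and Tgfbr2 (0.61) rose. Il2ra, the high-affinity chain of the IL-2 receptor, fell by 0.50. Of 20 genes of the T cell receptor complex and its signalling 4 rose, 1 fell and 15 did not pass (median 0.04), and the count of those that rose was 1 without Rosa26 library 1 and 2 without Rosa26 library 3. The median was 0.0090 and 0.02 in those fits and 0.08 without knockout library 2. The 1 that fell became 2 without knockout library 3, Rosa26 library 3 or both libraries with low Malat1. Ptprc (0.29) and Nfatc2 (-0.26) lost their calls in the fit of these 6 libraries alone, Nfatc2 also under upper-quartile scaling, and Cd6 (0.23) without Rosa26 library 1.

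The highest fold changes after Cacna1i included several membrane proteins. The 12 highest were Cacna1i, Sdc4 (1.81), Abca1 (1.61), Kit (1.50), Cd7 (1.39), Poln (1.38), Acoxl (1.31), Nr4a1 (1.23), Fgfr1 (1.23), Lypd6b (1.23), Plekha7 (1.20) and Ttc39c (1.19). Sdc4, a heparan sulfate proteoglycan, was at 1.5, 2.42 and 2.49 CPM in Rosa26 and 8.11, 5.68 and 8.53 CPM in the knockout (± 0.301, adjusted p = 0.000122). Cd7, a T and NK cell surface protein, was at 8.76, 13.7 and 13 CPM and at 28.3, 23.3 and 40.9 CPM (± 0.199, adjusted p = 3.39e-05). Fgfr1, a fibroblast growth factor receptor, was at 3.83, 5.34 and 5.29 CPM and at 12.1, 11 and 10.6 CPM. None of the 3 overlapped between groups, as the naming rule required. Poln lost its call in the fit of these 6 libraries alone.

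Interferon, autophagy and polyamine genes and a list labelled nuclear-retained RNAs gave counts near the background or ones that moved with a library. Of 29 interferon response genes 6 fell, 1 rose and 22 did not pass (median -0.24), and the count of lower genes was 3 without knockout library 1, without knockout library 3 or without both libraries with low Malat1, and 2 without Rosa26 library 1. Isg15 was at 7.17, 6.21 and 4.17 CPM in Rosa26 and 2.33, 3.37 and 2.39 CPM in the knockout (-1.12 ± 0.264, adjusted p = 0.00296), Bst2 fell by 0.51, and Slfn2 (0.34), whose levels overlapped, lost its call without Rosa26 library 1 or 3. The 1 that rose became 2 without knockout library 1, and the median was -0.07 without Rosa26 library 1. Of 28 autophagy and lysosome genes 5 rose and 1 fell (median 0.06), and 3 rose without knockout library 1 or 3 and 2 without Rosa26 library 1 or 3. That median was -0.06 without knockout library 3, 0.0061 without Rosa26 library 1, 0.04 without both libraries with low Malat1, and 0.10 to 0.12 without any other of the libraries but Rosa26 library 3. Atg12, a conjugation factor of the autophagosome, rose by 0.51. The 1 that fell, Becn1, lost its call in the fit of these 6 libraries alone, and the count was 4 without knockout library 3, 3 without Rosa26 library 2 and 2 without both. Of 12 polyamine genes 4 fell and 1 rose (median -0.25), and 7 fell without knockout library 3. Their median was -0.17 without Rosa26 library 2. Srm, spermidine synthase, fell by 0.46, and Smox, spermine oxidase, rose from 7.31, 12.2 and 9.84 CPM to 16.6, 13.6 and 21.7 CPM (0.83 ± 0.176). Of 12 RNAs of the list labelled nuclear-retained 4 rose and 1 fell (median 0.29), and 2 rose without Rosa26 library 1. That list also holds Norad and hosts of small nucleolar RNAs, so its count is no measure of RNA kept in the nucleus. The median was -0.01 without knockout library 2, 0.06 without Rosa26 library 2 and 0.44 without Rosa26 library 3. Snhg12, a host of small nucleolar RNAs, rose by 0.68 and Norad fell by 0.37.

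To see which differences were present without the drug, the knockout was set beside the same comparison in untreated cells, which uses 6 other libraries. There 2107 genes (14.3%) were lower and 1720 (11.7%) were higher, and upper-quartile scaling gave 1713 and 2330. The fold reached 2 in 32 of the lower genes and in 320 of the higher ones. The 3 untreated Rosa26 libraries all had low Malat1 (807.7 to 1109 CPM) and TEC shares (0.1% to 0.133%), against 2037 to 2649 CPM and 0.194% to 0.25% in untreated knockout. That gap runs with genotype in the untreated comparison and in the test of the difference built on it, and its part in them was not tested. Lower genes called in both comparisons numbered 1340, which is 55.9% of the calls with the drug and 63.6% of those without it. Higher genes called in both numbered 742 (42.9% and 43.1%). Opposite calls were 43 and 44. Among the 200 genes lower by at least 2-fold with the drug the median was -1.24 with it and -0.50 without it, and among the 103 higher ones it was 1.26 and 0.65. These genes were chosen on the drug comparison, so the larger size there is a description only. Mitosis and cholesterol genes were lower without the drug too, with all 32 and 22 of 24 called and medians of -0.60 and -0.65. So were 22 of 26 genes of glycolysis and the hypoxia response (median -0.59). Untreated, 12 of 21 naive and memory genes were higher and 2 lower (median 0.29). For p53 targets and the BCL2 family 11 of 23 were higher and 1 lower (median 0.22). For cytokine receptors 12 of 21 were higher and 2 lower (median 0.29). Of the cytosolic synthetases 18 of 20 were called lower untreated, with a median of -0.38.

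A test of the difference between the knockout effects with and without the drug called 589 genes lower (4.01%) and 354 higher (2.41%). With both libraries of low Malat1 left out 1697 genes were called, and 1477 without knockout library 3 or 1455 without Rosa26 library 2 with the drug. With RLE scaling the balance was 489 lower and 705 higher, and by DESeq2 it was 612 and 896. Atf5 was at 10.4 ± 2.22 CPM (SD, n = 3) in untreated Rosa26 and 12.4 ± 0.217 CPM in untreated knockout cells, so its effect differed by -1.82 (adjusted p = 2.92e-05). Trib3 was at 51.3 ± 1.16 and 41.3 ± 3.75 CPM untreated, and its effect differed by -1.33 (adjusted p = 5.38e-05). Angptl6 (-1.69), Pck2 (-1.36), Slc6a9 (-1.36), Chchd10 (-1.34), Gpt2 (-1.23), Asns (-1.002) and Psat1 (-0.93) were lower by the same test. The genes named for the lowest and highest fold changes with the drug were chosen on libraries that this test also uses. Of the lists, 12 of 20 cytosolic synthetases, 17 of 32 replication genes, 8 of 22 stress regulators and 8 of 18 amino acid transporters had a lower effect with the drug. The transporter count was 5 without untreated knockout library 1 or 2 or untreated Rosa26 library 3.

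Some genes changed direction or lost their untreated difference. Scd2 was at 400 ± 7.52 CPM in untreated Rosa26 and 231 ± 3.34 CPM in untreated knockout cells (-0.80), against 0.67 with the drug, and the difference of 1.46 passed (adjusted p = 1.1e-07). Scd1, a related desaturase, was at 8.53 ± 0.302 and 2.1 ± 0.212 CPM untreated and between 0.726 and 1.37 CPM in the 6 libraries with the drug, and its effect differed by 2.23 (adjusted p = 0.00354). Gbp11, a guanylate-binding protein gene with near-identical copies, was lower with the drug (-0.96) and higher without it (0.95). Lama5, a laminin chain, was higher untreated (1.65) and overlapped with the drug (-0.07). Tcf7 was at 377 ± 12 and 382 ± 8.98 CPM untreated, and its effect differed by 0.63 (adjusted p = 0.0023), whereas for S1pr1 (0.15), Kit (-0.13), Bach2 (-0.27) and Phgdh (-0.25) the difference did not pass. Syt6 (-2.95) had the lowest difference, and its call with the drug (1.15) was lost without knockout library 1 or Rosa26 library 1.

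**Figure D5:**
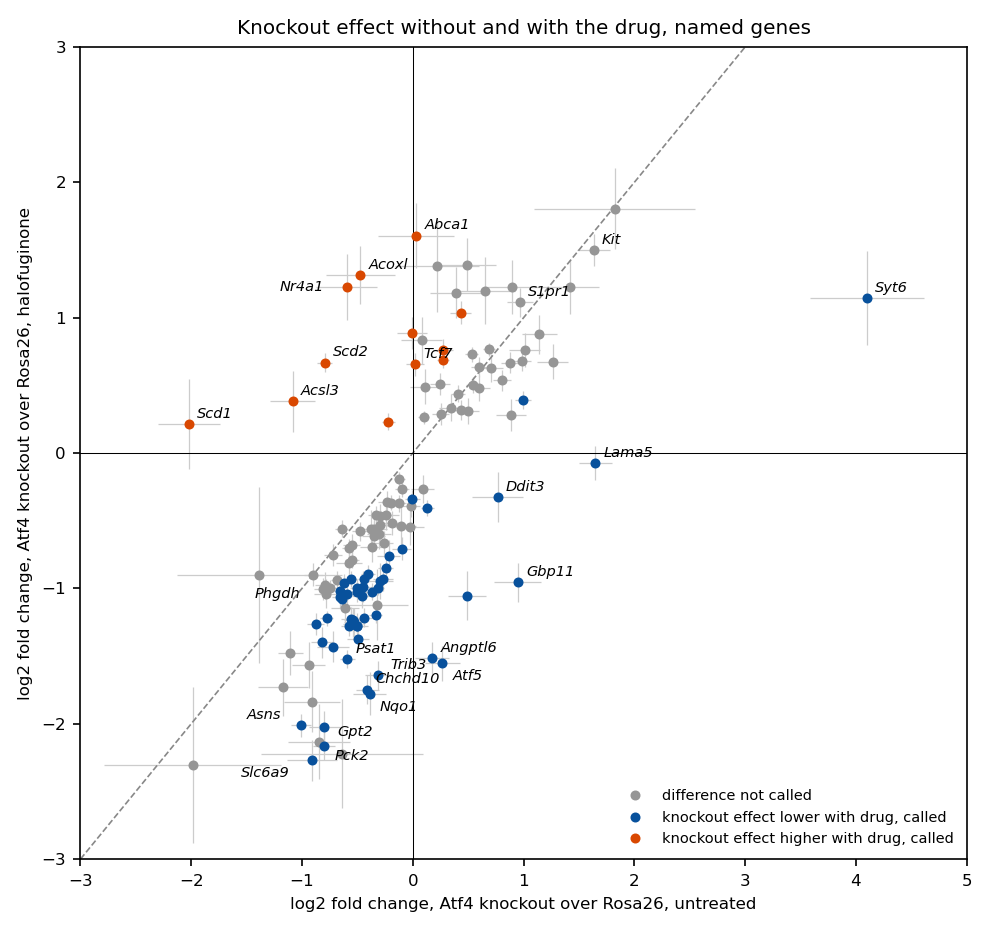
Log2 fold change of Atf4 knockout over Rosa26 with halofuginone (vertical) against the same untreated (horizontal) for the named genes except Cacna1i, with SE bars, the line of equal effects dashed and genes with a called difference in colour. Atf5 and Trib3 lie below the line, Scd2 and Tcf7 above it, and Kit and S1pr1 near it.

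Cebpg knockout cells with halofuginone were also set against Atf4 knockout cells with it, a comparison that shares the 3 Atf4 knockout libraries. With Cebpg over Atf4 knockout, 79 genes (0.538%) were higher and 68 (0.463%) lower, and DESeq2 called 210 and 291. Fitting only those 6 libraries left 1 call. The total of 147 was 53 without Atf4 knockout library 1, 404 without Atf4 knockout library 3, 22 without Cebpg knockout library 1 and 93 without Cebpg knockout library 2. Asns was higher in Cebpg knockout cells (0.47, adjusted p = 0.0144), as were Cars1 (0.60, adjusted p = 2.02e-05), Psat1 (0.34) and Pycr1 (0.96). Asns lost that call without Atf4 knockout library 1 or Cebpg knockout library 1, Psat1 without Atf4 knockout library 1 or Cebpg knockout library 3, and Pycr1 without Atf4 knockout library 1 or 2 or Cebpg knockout library 1 or 3. S1pr1 (-0.46) was lower, a call lost without Atf4 knockout library 1 or Cebpg knockout library 1 or 2. Atf4 itself differed by 0.0018 and did not pass (adjusted p = 0.997).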

How the data were processed

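Poly-A RNA of edited mouse CD8+ T cells was sequenced in 18 libraries, 3 in each of 6 groups, from directional (dUTP) libraries per the labels' protocols. The authors deposited a table of read counts per gene, whole numbers with no normalization. Per the submitters' processing notes the tools were FastQC, MultiQC, Trimmomatic, STAR, HTSeq and edgeR, with mouse build GRCm39; the strand setting of counting is not given in the sources used here, so overlapping and antisense genes cannot be told apart. Of 449 blank names 433 were filled by identifier from GENCODE M21 and 16 kept the identifier.

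The counts were fitted in R 4.3.3 with edgeR 4.0.16 (TMM scaling, robust quasi-likelihood test, 1 term per group, all 18 libraries sharing the estimate of spread). A filter at a count of 10 (filterByExpr) kept all 14695 genes, p-values were adjusted by Benjamini-Hochberg over all of them, and the threshold was 0.05. CPM used the TMM library sizes. The SE was the log2 fold change divided by the square root of F. Alternatives were DESeq2 1.42.0, limma 3.58.1 (voom with quality weights), RLE and upper-quartile scaling, a minimum mean of 5 CPM, no filter, a replicate block, only the libraries compared, and leaving out libraries. The code was tested on simulated counts with known fold changes. Promoter letters came from RefSeq windows of another build than the counts (GRCm38.p6) and were joined by symbol.

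The comparison, its lists and its tests were chosen with earlier results of these data known. Named genes were the targets and a panel of stress and T cell genes, the 12 highest and 12 lowest fold changes (at least 5 CPM, no overlap, no predicted gene name), the 3 smallest p-values of each list, and the 6 highest and 6 lowest of the interaction and of Cebpg against Atf4 knockout. Chosen after their values were seen were Nupr1, Cebpb, Ppp1r15a, Stc2, Gadd45b, Klhl24, Txnip, Slc3a2, Slc38a9, Slc43a2, Qars1, Eprs1, Eif2ak4, Mthfd2l, Aldh18a1, Glul, Srxn1, Hmox1, Hspa5, Slc16a3, Slc2a3, Fas, Mcl1, Klf2, Lef1, Ccr7, Eomes, Id3, Fasl, Lag3, Il6ra, Tgfbr2, Il2ra, Zbtb7b, Ikzf2, Cd8a, Cd247, Thy1, Cd2 and the genes with a promoter match. Some genes that the rule names are not reported here.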

Additional observations from a re-analysis of the deposited data

Results flagged for a closer look

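For 61 named genes a test of the difference itself found that the effect of Atf4 knockout differed between cells with and without halofuginone, at an adjusted p under 0.05 by edgeR's quasi-likelihood test. Each value below is the log2 effect with the drug minus that without it.

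The genes of the stress response with a lower effect under the drug were Atf5 (-1.82), Trib3 (-1.33), Ddit3 (-1.09), Vegfa (-0.87), Eif4ebp1 (-0.78), Sesn2 (-0.60) and Cebpg (-0.54), while Sesn3 (0.41) had a higher one. For Ddit3 the effect with the drug did not pass, and untreated it was higher in the knockout (0.76). That untreated call was lost without untreated knockout library 1 or untreated Rosa26 library 1 or 3. Amino acid transporters and enzymes were Slc6a9 (-1.36), Slc7a5 (-0.78), Slc1a4 (-0.71), Gpt2 (-1.23), Asns (-1.002), Psat1 (-0.93), Mthfd2 (-0.77), Bcat1 (-0.71), Shmt2 (-0.67) and Mthfd1l (-0.66). The synthetases were Lars1 (-0.86), Aars1 (-0.49), Yars1 (-0.45), Cars1 (-0.44) and Vars2 (-0.34). Mitochondrial, redox and ER genes were Pck2 (-1.36), Chchd10 (-1.34), Nqo1 (-1.39), Lonp1 (-0.68), Hspa9 (-0.60), Mrps25 (-0.54), Txnrd1 (-0.49), Xbp1 (-0.66) and Sdf2l1 (-0.41).

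Cell cycle and nucleotide genes were Dna2 (-0.72), Recql4 (-0.72), Tk1 (-0.69), Skp2 (-0.65), Troap (-0.54), Cdc6 (-0.53), Lig1 (-0.49), Rrm1 (-0.45), Mcm10 (-0.37), Tpx2 (-0.37) and Rrm2 (-0.34). Among lipid genes Scd1 (2.23), Abca1 (1.58), Acsl3 (1.47), Scd2 (1.46), Mylip (0.89) and Abcg1 (0.60) had a higher effect. The remaining genes with a lower effect were Syt6 (-2.95), Gbp11 (-1.90), Lama5 (-1.72), Angptl6 (-1.69), Ncs1 (-1.54), Tnf (-0.60) and Nt5e (-0.60). Those with a higher effect were Nr4a1 (1.83), Acoxl (1.79), Tcf7 (0.63), Pmaip1 (0.49) and Cd6 (0.45).

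Of the 61, 51 kept their call under every alternative run. The other 10, each of which lost it in at least 1 setting that leaves out a library, were Ddit3, Slc1a4, Abca1, Troap, Skp2, Vars2, Sdf2l1, Rrm2, Pmaip1 and Mrps25.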

How the results depend on the processing

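No gene named by the rule changed direction in a called value. Of 131 such genes that were called, 15 lost their call with the drug under at least 1 alternative. Genes chosen after their values were seen are outside this count. Among those, Cd8a, Thy1, Cd2, Cd247, Id3 and Mthfd2l also lost calls. The list medians that changed sign were those of mitochondrial synthetases (0.03 with upper-quartile scaling), autophagy genes (-0.06 without knockout library 3) and the list labelled nuclear-retained RNAs (-0.01 without knockout library 2). The median of the CD8 T cell markers, which lay near 0, also changed sign. Fitting only the libraries compared gave 2500 calls for Atf4 knockout over Rosa26 with the drug (1138 higher, 1362 lower), 5997 untreated, 607 for the difference between both and 1 for Cebpg against Atf4 knockout. By voom 6133 genes were called with the drug (2668 higher, 3465 lower), 5830 untreated, 2816 for the difference and 1314 for Cebpg against Atf4 knockout. DESeq2 gave 1508 for the difference and 501 for Cebpg against Atf4 knockout, where RLE scaling gave 223, upper-quartile scaling 291 and a minimum of 5 CPM 365. Without both libraries of low Malat1 the difference had 1697 calls. Leaving out a library gave 3302 to 5265 calls with the drug, 650 to 1477 for the difference and 22 to 404 for Cebpg against Atf4 knockout. The cause of these shifts was not tested. With a replicate block the totals were 3886, 3547, 783 and 90. Same-numbered Atf4 knockout and Rosa26 libraries with the drug did not deviate together (correlations over genes 0.36, -0.69 and -0.64, and 0.76 for knockout 3 with Rosa26 2). The first principal component held 74.2% of the spread within groups, with knockout library 3 and Rosa26 library 2 at the same end. The signs of these correlations follow that split, so they cannot show whether the numbers pair the samples. Counting depth limits genes near 1 CPM, such as Ifng.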
